A study of Mus musculus with 6 samples.

Results

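The 39 genes described here are lysosomal genes and the transcription factors known to control them, chosen by name: the 4 MiT (microphthalmia-associated) factors and 35 genes of cathepsins, other lysosomal hydrolases, their cofactors and lysosomal membrane proteins. They and the lists set beside them were chosen with earlier results of these data known. All 39 were found among the 24421 gene entries of the deposited table, and all 39 passed the filter on low counts.

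Lysosomes are acidic organelles in which proteases, glycosidases and lipases break down material delivered by endocytosis and autophagy. The microphthalmia-associated (MiT) family of basic helix-loop-helix leucine zipper transcription factors, MITF, TFE3, TFEB and TFEC, binds E-box sequences near many lysosomal genes and is held in the cytoplasm by mTORC1 signalling at the lysosome surface when nutrients are plentiful. In pluripotent mouse cells Tfe3 is known for its part in the exit from self-renewal, and the absorptive visceral endoderm of the early embryo is known for its large lysosomal system.

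The libraries were made from RNA of mouse iPSCs (induced pluripotent stem cells), obtained by reprogramming somatic cells to a pluripotent state. One group of 3 libraries carried deleted alleles of serum response factor (SRFΔ/Δ, called SRF KO), and the other group of 3 carried the intact conditional alleles (SRFf/f, called WT). Both groups were grown in medium with serum. The Cre or other agent that made the deletion, the strain, the use of feeder cells and whether replicates are separate clones are not given in the sources used here, so that p-values measure the spread between these libraries, which may be technical. The study concerns SRF, noise in expression and how stable cell states are, and the comparison asks what differs in expression without SRF.

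Total counts were between 26321602 and 36680156 per library. Srf itself had 84 to 131 counts with the deleted alleles against 765 to 1326 with the intact ones, which matched the labels in all 6. Of 14 pluripotency markers 7 fell (50%) and 1 rose (7.14%), where 21.3% of all genes fell and 21.2% rose. Their median was -0.19. Their summed level was 6648 to 6781 CPM (counts relative to library size after TMM scaling) in SRF KO against 7979 to 8533 in WT. The single rise, Zfp42 (0.17), was not called when any one of SRF KO replicates 1 and 2 and WT replicates 1 and 3 was left out. Nanog was at 256 ± 2.03 CPM in SRF KO against 444 ± 3.01 in WT and fell by 0.79 on the log2 scale, while Pou5f1, which did not pass the threshold, was at 773 ± 11.3 CPM in SRF KO against 818 ± 52.4 in WT (SD, n = 3). WT replicate 2 stood apart from the other WT libraries on the second principal component, which held 10.04% of the variance, and calls on the 39 genes that change without it are given beside them. In the text, levels are CPM, differences are log2 fold changes of SRF KO over WT, and a gene rose or fell only where its adjusted p was under 0.05 by the edgeR quasi-likelihood test, adjusted by the Benjamini-Hochberg method over all 15611 features tested. All adjusted p-values are from this fit.

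Lysosomal genes were mostly higher in SRF KO, with the largest differences in Tfec and in 4 protease genes, Ctsh, Lgmn, Ctsl and Ctsc. Of the 39 genes, 22 rose (56.4%), 3 fell and 14 did not pass the threshold. Among all 14778 genes tested, 21.2% rose, 21.3% fell and 42.4% did either. The median log2 fold change was 0.24 over the 39 genes and -0.01 over all genes tested. Without WT replicate 2, 6 of the 39 fell, and 3809 of all genes did, against 3141 with all libraries. The rises were mainly small, since 17 of the 22 were under 1 on the log2 scale. At 1 or more, 5 of the 39 rose and 0 fell, where 5.53% of all genes rose and 1.76% fell. In 24 genes every SRF KO library was above every WT library, and in 4 every one was below, against 26.2% and 26.5% of all genes. The RNA came from whole cultures, in which fewer cells of a type and less RNA per cell cannot be told apart.

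**Figure D1:**
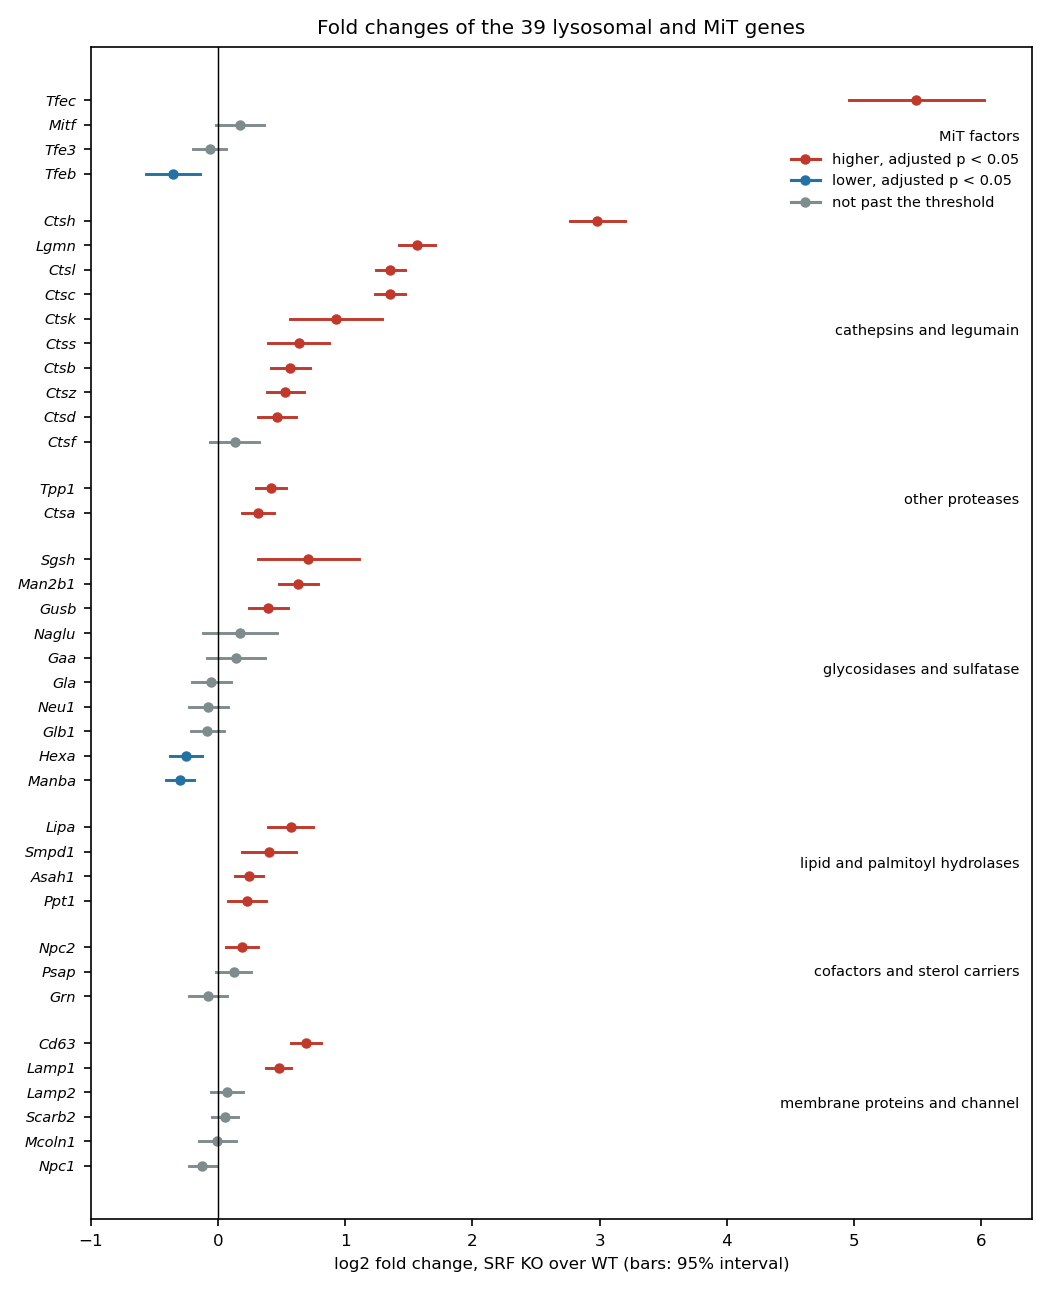
The x axis gives the log2 fold change of SRF KO over WT for each of the 39 genes, listed on the y axis by role. Points are edgeR estimates and bars their 95% intervals from 3 libraries per group, in red for genes that rose, blue for genes that fell and grey for the rest. Tfec lies far to the right at 5.49, and the intervals of 9 of the 10 cathepsin and legumain genes lie wholly right of 0.

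Summed over the 39 genes, the level was 3480, 3331 and 3548 CPM in SRF KO replicates 1 to 3 against 2581, 2487 and 2653 in WT replicates 1 to 3. The 2 groups did not overlap in this sum, and the ratio of the group means was 1.34. A few genes made up most of the difference of 880 CPM between the group means. Ctsl alone held 29.9% of it, and Ctsl, Lamp1, Ctsd, Ctsb and Lgmn together held 71.1%. No test was made of these sums.

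Among the MiT factors, Tfec was nearly absent in WT and clearly present in SRF KO, Tfeb was modestly lower, and Mitf and Tfe3 did not pass the threshold. TFEC is the family member with the narrowest known expression, best described in macrophages. Tfec (chr6:16833373-16898441, minus strand, GENCODE M21 on GRCm38, with no exon shared with another gene) had 182, 191 and 173 counts in SRF KO replicates 1 to 3 against 4, 2 and 7 counts in WT replicates 1 to 3. These were 6.76, 7.21 and 5.98 CPM in SRF KO against 0.110, 0.0777 and 0.244 in WT. Every SRF KO library was far above every WT library, and WT replicate 2 lay under the level of 3 counts that a count of 0 allows. Tfec rose by 5.49 on the log2 scale (SE 0.24, edgeR adjusted p 1.6e-08). As a ratio of summed counts scaled by library size, SRF KO was 46.2-fold above WT, with an exact 95% interval from 26.8 to 87.4 that covers counting error only.

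Tfeb, the factor best known for driving lysosome biogenesis, had 19.8, 17.4 and 19.7 CPM in SRF KO replicates 1 to 3 against 26.8, 20.7 and 24.9 in WT replicates 1 to 3. The highest SRF KO value was close under the lowest WT value, that of WT replicate 2. Tfeb fell by 0.35 on the log2 scale (SE 0.10, edgeR adjusted p 0.013). This call was lost without WT replicate 1 (-0.27) or SRF KO replicate 2 (-0.29).

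Tfe3, the factor known from pluripotent cells, had 94.0, 89.9 and 94.8 CPM in SRF KO against 101, 89.2 and 101 in WT. The groups overlapped, and the log2 fold change was -0.07 with a 95% interval from -0.19 to 0.06 (edgeR adjusted p 0.40). Mitf, named for its part in melanocytes and also used in osteoclasts, had 11.9, 10.9 and 10.5 CPM in SRF KO against 9.61, 10.4 and 9.48 in WT. Its log2 fold change was 0.17 with an interval from -0.01 to 0.36 (edgeR adjusted p 0.13). Without WT replicate 2 both passed the threshold, Tfe3 at -0.12 and Mitf at 0.22. The table gives 1 value per gene, so the several start sites of Mitf, which serve different tissues, cannot be told apart.

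**Figure D2:**
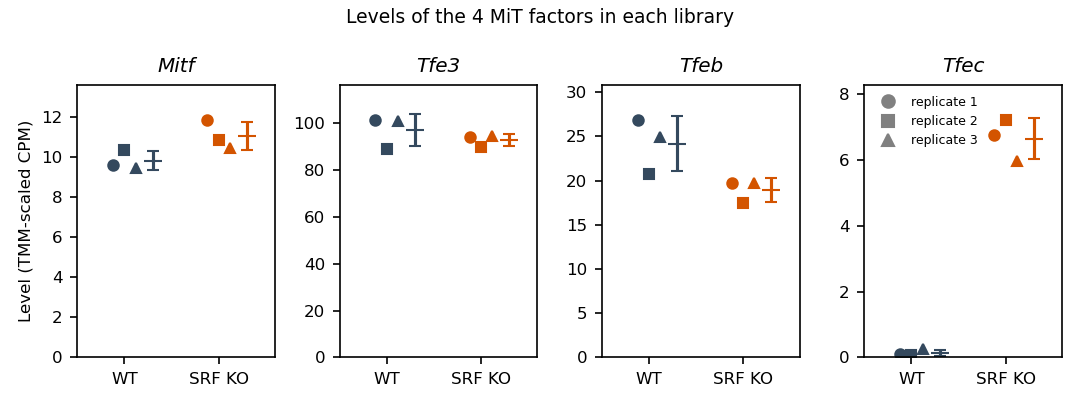
Each panel shows 1 factor, with its level in TMM-scaled CPM on a y axis that starts at 0 and its own scale. Symbols are single libraries by replicate number, and the bar beside them is the mean with SD over 3 libraries. Tfec lies between 5.98 and 7.21 CPM in SRF KO and at or under 0.244 CPM in WT, while Tfeb is lower in SRF KO without overlap and Tfe3 overlaps between the groups.

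Compared per kilobase of merged exon length, the order of the factors in WT was Tfe3, Tfeb, Mitf and Tfec. Tfe3 made up 64.1% ± 0.599 of the summed level of the 4 factors per kilobase in WT and 61.3% ± 0.772 in SRF KO (SD over 3 libraries). Tfec went from 0.155% ± 0.0901 to 7.29% ± 0.833, and Tfeb from 25.97% ± 1.52 to 20.5% ± 0.913. Mitf made up 9.75% ± 1.24 in WT against 10.9% ± 0.595 in SRF KO. The order was the same in all 6 libraries, with Tfec last. The summed level of the 4 was between 15.8 and 16.8 CPM per kilobase in SRF KO and between 15.0 and 17.3 in WT, so that the groups overlapped.

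The 250 bases before the RefSeq start of Tfec (chr6:16898442-16898691 on GRCm38.p6, minus strand) are shown because this gene had the largest difference. They hold no match to any of the motifs searched below, which is why no base is in capitals, and no annotated exon lies in them.
Tfec: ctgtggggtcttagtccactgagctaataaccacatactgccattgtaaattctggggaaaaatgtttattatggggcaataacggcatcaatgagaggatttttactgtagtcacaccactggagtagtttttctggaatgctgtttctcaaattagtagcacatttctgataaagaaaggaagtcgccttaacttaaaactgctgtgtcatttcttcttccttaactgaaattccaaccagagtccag

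MiT factors bind the palindromic E-box CACGTG, often within the longer TCACGTGA, and the related M-box TCATGTGA. SRF binds the CArG box. RefSeq windows of 250 bases before to 50 after each start were searched on both strands, for the 35 of the 39 genes that had a window (all but Asah1, Ctsb, Ctsh and Npc1). CACGTG was in the window of 12 of these 35 genes (34.3%) and in 8.09% of all genes with a window. Within it, TCACGTGA was in 4 (11.4%) against 1.13% of all genes. TCATGTGA was in 5 (14.3%) against 1.147%, and a CArG box in 1, Tfe3 (2.86%), against 1.81%. All genes here were the 27025 with a window, with no filter on low counts, while the 35 had all passed that filter. A match is a stretch of letters and not a shown binding site.

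Genes with and without CACGTG had similar medians, and no test was made. Of the 12 genes with it, 6 rose and 0 fell, with a median of 0.24 on the log2 scale, and of the 23 without it 13 rose and 3 fell, with a median of 0.22. The upstream sequence of Lamp1 (chr8:13158911-13159160, plus strand), which encodes a major glycoprotein of the lysosomal membrane and rose, is shown whole because it holds 4 copies, in capitals, within its last 61 bases.
Lamp1: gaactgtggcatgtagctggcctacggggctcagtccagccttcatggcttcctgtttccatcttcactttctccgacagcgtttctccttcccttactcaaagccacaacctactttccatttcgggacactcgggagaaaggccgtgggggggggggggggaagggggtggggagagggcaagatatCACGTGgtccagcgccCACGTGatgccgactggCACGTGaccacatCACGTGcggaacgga

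Windows of 30 bases around CACGTG, in capitals, are given for 4 genes that rose and 3 that did not pass the threshold, to set the same motif in both classes side by side. Ctsl, Lgmn, Ctsd and Sgsh rose, and Mcoln1, Gla and Glb1 did not pass. Positions are on GRCm38.p6, on the plus strand for Mcoln1 and Glb1 and on the minus strand for the rest.
Ctsl (chr13:64370739-64370768): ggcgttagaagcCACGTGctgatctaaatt
Lgmn (chr12:102439124-102439153): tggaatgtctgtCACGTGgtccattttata
Ctsd (chr7:142387908-142387937): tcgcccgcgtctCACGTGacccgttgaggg
Sgsh (chr11:119355522-119355551): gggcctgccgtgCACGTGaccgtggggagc
Mcoln1 (chr8:3500462-3500491): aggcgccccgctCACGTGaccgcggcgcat
Gla (chrX:134601182-134601211): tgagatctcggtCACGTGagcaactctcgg
Glb1 (chr9:114401018-114401047): ctgcttctgagtCACGTGgcctacagaggc
Gla and Mcoln1, with 2 copies of CACGTG each, had log2 fold changes of -0.05 and -0.01. Ctsa and Ctsd, also with 2 copies each, rose by 0.31 and 0.46, and Lamp1, with 4, rose by 0.48. Of the genes with 1 copy, Ctsl (at position -236 from its start), Lgmn and Sgsh rose by 1.35, 1.56 and 0.71. Ctsf, Gaa, Glb1 and Naglu, with 1 copy each, did not pass. A relation between copy number and fold change was not tested.

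Nearly all cathepsins and legumain rose. These are the proteases that degrade proteins in the lysosome, most of them cysteine proteases, with Ctsd an aspartic protease and legumain an asparaginyl endopeptidase that also processes other cathepsins. Of 10 genes, 9 rose and 0 fell, with a median log2 fold change of 0.78, where 21.2% of all genes rose and 21.3% fell. Their summed level was 1259 to 1387 CPM in SRF KO against 703 to 754 in WT.

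Ctsh, an aminopeptidase, had the largest difference of the group and came from a low WT level. It had 29.4, 26.1 and 26.4 CPM in SRF KO replicates 1 to 3 against 3.53, 3.03 and 3.73 in WT replicates 1 to 3. The groups were far apart, and the gene rose by 2.98 (SE 0.10, edgeR adjusted p 1.0e-09). Ctsl (chr13:64359337-64370890, minus strand), the broad endopeptidase cathepsin L, had 439, 423 and 435 CPM in SRF KO against 166, 179 and 163 in WT. It rose by 1.35 (SE 0.05, edgeR adjusted p 4.0e-09), with no overlap. Per kilobase it moved from place 8 of 39 in WT to place 4 in SRF KO.

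Lgmn encodes legumain and had 113, 101 and 110 CPM in SRF KO against 38.4, 33.7 and 37.4 in WT. It rose by 1.56 (SE 0.06, edgeR adjusted p 8.6e-09). Ctsc, which activates serine proteases of immune granules by removing dipeptides, had 71.2, 68.2 and 69.1 CPM in SRF KO against 27.0, 26.5 and 28.1 in WT. It rose by 1.35 (SE 0.05, edgeR adjusted p 6.7e-09). In both genes the libraries within a group lay close together and the groups were well apart.

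The other cathepsins differed less. Ctsd had 345, 331 and 381 CPM in SRF KO against 248, 240 and 279 in WT, and rose by 0.46 (SE 0.07). Ctsb had 237, 216 and 265 CPM in SRF KO against 157, 158 and 170 in WT, and rose by 0.57 (SE 0.07). In both, SRF KO replicate 3 was the highest library and no SRF KO value fell into the WT range. Ctsz, a carboxypeptidase, rose by 0.53 (SE 0.07). Ctsf was the exception, at 9.88 ± 0.384 CPM in SRF KO against 8.995 ± 0.675 in WT (SD, n = 3). Its log2 fold change was 0.13 with a 95% interval from -0.06 to 0.33.

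Ctsk and Ctss, best known from osteoclasts and from antigen-presenting cells, lie next to each other on chromosome 3 (95499256-95509362 and 95526786-95556403). Ctsk had 103, 92 and 142 counts in SRF KO against 71, 64 and 59 in WT, and rose by 0.92 (SE 0.17, edgeR adjusted p 0.00092). Ctss had 184, 170 and 221 counts in SRF KO against 156, 114 and 137 in WT, and rose by 0.63 (SE 0.11, edgeR adjusted p 0.00068). Relative to library size the groups did not overlap in either gene, SRF KO replicate 3 was the highest in both, and without it the values were 0.76 and 0.56. Per kilobase of exon, their SRF KO levels were 2.69 and 5.13 CPM.

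Markers of other cell types moved with these genes. Of 14 macrophage markers 11 were tested and 7 rose (63.6%, against 21.2% of all genes), with a median of 0.70. The other 4 tested, Itgam (0.38), Ptprc (0.47), Spi1 (0.52) and Tyrobp (0.63), did not pass. The summed level of the tested markers was 163 to 212 CPM in SRF KO against 106 to 125 in WT. Most of this sum was Lyz2, at 129 ± 17.0 CPM in SRF KO against 83.0 ± 6.21 in WT (SD, n = 3). Mrc1 had 8.98 ± 0.772 and 5.01 ± 0.235 CPM and C1qc 7.55 ± 1.75 and 4.13 ± 1.06 CPM (SD, n = 3). No macrophage marker was at 0 in all libraries, while Cx3cr1 was at 0 in 4 of 6. The macrophage and fibroblast sums were highest in SRF KO replicate 3, and the visceral endoderm sum in SRF KO replicate 1. Among the SRF KO libraries, 17 of the 39 genes were highest in replicate 1, 5 in replicate 2 and 17 in replicate 3. Genes that rose and genes that did not pass were in each of these sets. The part of cells of other types in the results on cathepsins and on Tfec was not tested.

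Of 16 visceral endoderm markers 15 were tested, 13 rose and 2 fell (Apoe and Rhox5), where 21.2% of all genes rose and 21.3% fell. The median of these markers was 3.83, and 1 fell when SRF KO replicate 3 was left out. Their summed level was 1933 to 2113 CPM in SRF KO against 657 to 712 in WT. Lrp2, the endocytic receptor megalin, was at 504 ± 32.7 and 33.9 ± 1.25 CPM, and Ttr had no count in any WT library and was in SRF KO at least 16.5-fold higher than a floor of 3 counts per library. With Ttr at that bound the median was 3.83 as well. Afp had at most 3 counts in every library. All 12 fibroblast markers rose, with a median of 1.16, where 21.2% of all genes rose. Their summed levels were 957 to 1142 CPM in SRF KO against 470 to 526 in WT. The part of endoderm-like or fibroblast-like cells in the results on lysosomal genes was not tested.

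Of 9 markers of melanocytes, the cells in which Mitf is best known, 5 were at or near 0. Tyr, Tyrp1, Dct, Oca2 and Slc45a2 had at most 3 counts in every library, and Oca2 had 0. Pmel was present in every library, at 4.33 ± 0.606 CPM in SRF KO against 4.16 ± 0.329 in WT (SD, n = 3), and did not pass. Of the 4 melanocyte markers tested 1 rose (Mlana, not called by DESeq2 or when WT replicate 1 or either of SRF KO replicates 2 and 3 was left out) and 1 fell (Trpm1, with 5 to 18 counts in SRF KO against 65 to 76 in WT), and the sum of the tested markers was 5.63 to 6.95 CPM in SRF KO against 7.46 to 7.66 in WT. Among 8 osteoclast markers 4 were tested and 2 rose (Nfatc1 and Itgb3), or 1 on leaving out WT replicate 1 or SRF KO replicate 3. The shares of all genes to set beside both lists were 21.2% higher and 21.3% lower. The melanocyte shares, 25% each way, were near them. Dcstamp was at 0 in all libraries and Ocstamp had at most 3 counts.

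**Figure D3:**
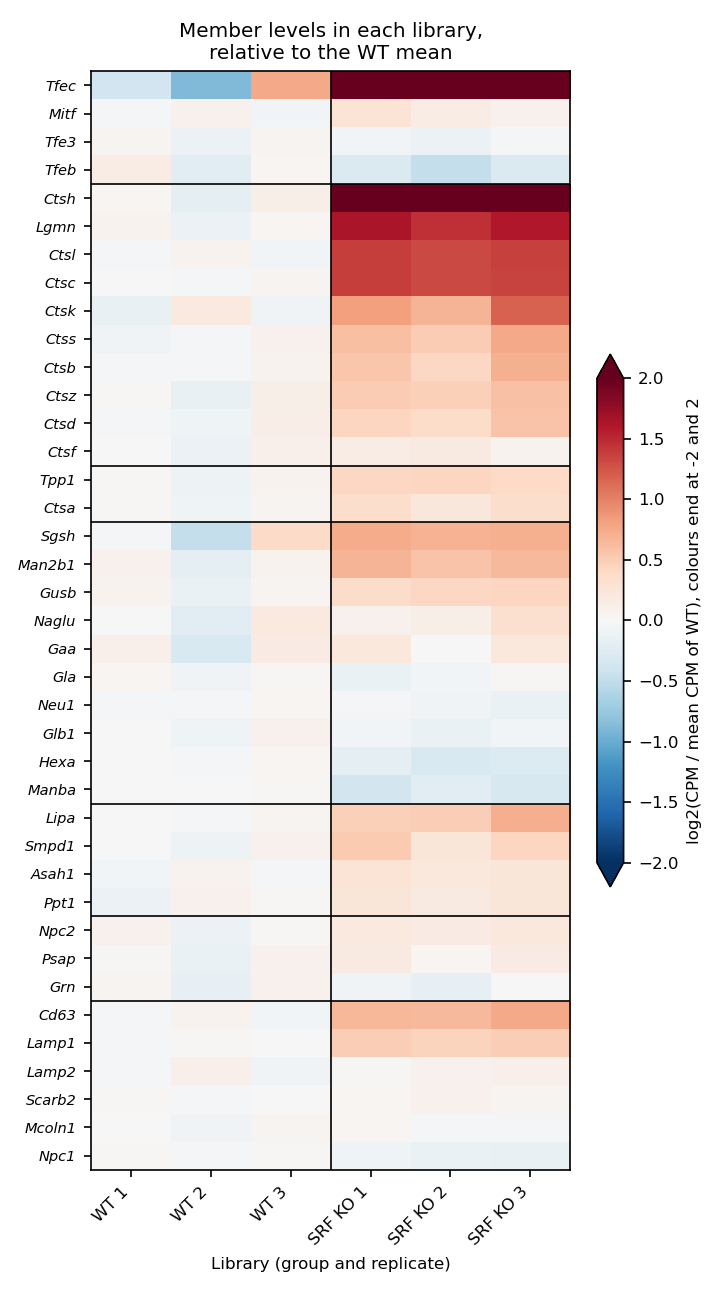
Rows are the 39 genes by role and columns the 6 libraries, and colour gives log2 of the CPM over the mean CPM of WT, with colours ending at -2 and 2. The 3 SRF KO columns are red for Tfec and most cathepsins, while most glycosidases and membrane proteins are near white in all columns.

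Glycosidases, which trim sugar chains from glycoproteins, glycolipids and glycosaminoglycans, had shares of calls near those of all genes. Of 10 genes including the sulfatase Sgsh, 3 rose, 2 fell and 5 did not pass, with a median of 0.04, where 21.2% of all genes rose and 21.3% fell. Man2b1, the lysosomal alpha-mannosidase, had 93.1, 87.0 and 91.9 CPM in SRF KO against 62.0, 51.6 and 61.6 in WT. It rose by 0.63 (SE 0.07, edgeR adjusted p 2.7e-05), with the groups well apart. The beta-mannosidase gene Manba went the other way, with 81.2, 89.9 and 83.6 CPM in SRF KO against 104, 104 and 106 in WT. It fell by 0.30 on the log2 scale (SE 0.05, edgeR adjusted p 0.00076), and again no values overlapped.

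Hexa, the alpha subunit of beta-hexosaminidase, had 47.5, 43.3 and 44.5 CPM in SRF KO against 53.9, 52.2 and 54.9 in WT. It fell by 0.25 on the log2 scale (SE 0.06, edgeR adjusted p 0.0038). Gm2a, an activator protein of ganglioside breakdown that is not among the 39 genes but stood on the list of other luminal enzymes, went from 35.6 ± 2.41 to 23.7 ± 0.343 CPM (SD, n = 3). Its log2 fold change was -0.59 (edgeR adjusted p 3.6e-05).

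Gusb, the beta-glucuronidase, rose by 0.40 (SE 0.07, edgeR adjusted p 0.00085). Sgsh, a sulfatase of heparan sulfate breakdown, had 100, 95 and 105 counts in SRF KO against 78, 41 and 83 in WT, and rose by 0.71 (SE 0.18, edgeR adjusted p 0.0080). In CPM the groups did not overlap, and the WT libraries of Sgsh were widely spread, with replicate 2 the lowest. Gaa, which degrades glycogen, had a log2 fold change of 0.14 with a 95% interval from -0.08 to 0.37. Gla, Glb1, Neu1 and Naglu, whose enzymes remove galactose, sialic acid and N-acetylglucosamine residues, were at -0.05, -0.08, -0.08 and 0.17.

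The 4 lipid and palmitoyl hydrolases all rose by small amounts, where 21.2% of all genes rose. Lipa, the acid lipase that frees cholesterol and fatty acids from lipoprotein lipids, had 24.3, 24.7 and 29.0 CPM in SRF KO against 17.4, 17.0 and 18.2 in WT. It rose by 0.57 (SE 0.08, edgeR adjusted p 0.00019), with the groups apart and SRF KO replicate 3 the highest. The sphingomyelinase gene Smpd1 rose by 0.40 and the ceramidase gene Asah1 by 0.24 (edgeR adjusted p 0.0066 and 0.0026). Ppt1, which removes palmitate from proteins, rose by 0.22 (edgeR adjusted p 0.021), a call lost when WT replicate 1 (0.17), SRF KO replicate 1 (0.22) or SRF KO replicate 3 (0.22) was left out. Of the other proteases, Tpp1, a tripeptidyl peptidase, rose by 0.42, and Ctsa, which shields beta-galactosidase and neuraminidase, rose by 0.31 (edgeR adjusted p 9.7e-05 and 0.0011).

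Psap encodes the precursor of the saposins that present lipids to hydrolases, and Grn encodes progranulin. Neither passed the threshold, with log2 fold changes of 0.12 (95% interval -0.01 to 0.26) and -0.08 (-0.23 to 0.07). The Niemann-Pick pair, which carries cholesterol out of the lysosome, was split. Npc2, the soluble carrier, had 109, 107 and 110 CPM in SRF KO against 101, 87.5 and 97.2 in WT, and rose by 0.19 (SE 0.06, edgeR adjusted p 0.021). That call was lost when SRF KO replicate 1 (0.19) or replicate 3 (0.18) was left out. The membrane transporter Npc1 had 74.2, 72.3 and 71.5 CPM in SRF KO against 80.1, 76.6 and 80.7 in WT. The groups did not overlap, but its log2 fold change of -0.12 missed the threshold (edgeR adjusted p 0.062), and it passed without WT replicate 2 (-0.14).

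Among the lysosomal membrane proteins 2 of 6 rose (33.3%) and 0 fell, where 21.2% of all genes rose and 21.3% fell. Lamp1 had 418, 404 and 419 CPM in SRF KO against 294, 302 and 296 in WT. It rose by 0.48 (SE 0.05, edgeR adjusted p 8.0e-06), with a narrow spread in both groups. Per kilobase Lamp1 was the most abundant of the 39 genes in both groups, at 155 ± 3.16 in SRF KO against 111 ± 1.46 in WT (SD over 3 libraries), followed by Ctsd and Psap in both. Cd63, a tetraspanin of late endosomes and of secreted vesicles, had 101, 100 and 108 CPM in SRF KO against 63.2, 67.2 and 61.2 in WT. It rose by 0.69 (SE 0.05, edgeR adjusted p 2.0e-06).

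The remaining membrane genes differed little. Lamp2, which also serves chaperone-mediated autophagy, and Scarb2, the receptor that sorts glucocerebrosidase, had log2 fold changes of 0.07 (95% interval -0.05 to 0.19) and 0.06 (-0.05 to 0.16). The calcium channel gene Mcoln1 had 26.1, 24.5 and 24.996 CPM in SRF KO against 25.5, 24.1 and 26.3 in WT, and a log2 fold change of -0.01 (-0.15 to 0.14). Without WT replicate 2, Lamp2 (0.13) and Grn (-0.15) passed the threshold. Over the 14 genes that did not pass, the 95% intervals reached from -0.23 to 0.46.

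Some exons are shared with other genes, and whether counting used strand is not given in the sources used here. In GENCODE M21, 12 of the 39 genes had exon overlap with another gene, among them Ctsd (34.4% of its exon length, with a gene on the same strand), Ctsl (26.8%, opposite strand), Sgsh (21.6%, with Card14), Ctsa (17.4%, with Neurl2 and Pltp), Ctsb (12.8%, with Fdft1), Hexa (12.8%, with Tmem202) and Lamp1 (9.31%, with Grtp1). These are shares of exon length, and how far the overlaps bear on the counts was not tested. The genes that overlap Ctsd and Ctsl had no entry among the deposited counts. Of the 27 genes with no such overlap, 14 rose, 2 fell and 11 did not pass. Among all genes, 21.2% rose and 21.3% fell.

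Other genes of the pathway were read from 6 further lists. The shares of all genes to set beside them were 21.2% higher and 21.3% lower. Of the 29 luminal enzymes outside the 39 genes, 14 were higher (48.3%) and 7 lower (24.1%), with a median of 0.19. The number higher was 8 when SRF KO replicate 1 was left out, and 9 when WT replicate 1 or SRF KO replicate 3 was. In these settings 16.4%, 17.2% and 16.5% of all genes were higher, in that order. Besides Gm2a, Man2b2, another mannosidase, rose by 0.67 and Gpnmb, a transmembrane glycoprotein of lysosomes and melanosomes known as an MiT target, by 0.70. Of 20 tested membrane proteins 8 rose (40%) and 0 fell, with a median of 0.17. On leaving out WT replicate 1 or SRF KO replicate 1, 5 rose. Those with the smallest p were the sialic acid exporter Slc17a5 (0.68), Laptm5 (0.47), the cobalamin exporter component Lmbrd1 (0.57) and Laptm4a (0.32).

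The vacuolar ATPase, which acidifies the lysosome, had 4 of 22 subunits higher (18.2%) and 3 lower (13.6%), near the 21.2% and 21.3% of all genes. With total counts as the scale 7 were higher, where 23.8% of all genes were, and leaving out SRF KO replicate 2 left 1 lower. The alternative forms of its membrane subunit a went different ways. Atp6v0a1 went from 35.4 ± 2.19 to 61.2 ± 3.11 CPM and Atp6v0a4, the form best known from kidney, from 15.1 ± 0.756 to 7.19 ± 0.115 CPM (SD, n = 3). Their log2 fold changes were 0.79 and -1.07 (edgeR adjusted p 2.2e-06 and 1.3e-06). Atp6v0a2 rose by 0.33 and the accessory subunit gene Atp6ap1 by 0.42.

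Genes that sort enzymes to the lysosome had 4 of 15 higher (26.7%) and 3 lower (20%), near the same shares of all genes. The number higher was 2 when WT replicate 1 or either of SRF KO replicates 1 and 3 was left out. The share of all genes higher was then 17.2%, 16.4% and 16.5%. Leaving out WT replicate 2 made 5 lower, and 3809 of all genes, against 3141 with all libraries. Cln6, an endoplasmic reticulum protein needed for the export of lysosomal enzymes, fell by 0.96 on the log2 scale and Sort1 by 0.26, while Sumf1, the activator of sulfatases, rose by 0.44 and Nagpa by 0.47. The mannose 6-phosphate receptor gene Igf2r was at -0.05 and did not pass.

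The mTORC1, Rag GTPase and folliculin system holds MiT factors in the cytoplasm. Of 19 genes of this system and its regulators, 7 were lower (36.8%) and 1 higher (5.26%), against 21.3% and 21.2% of all genes. The list mixes activators of mTORC1 with inhibitors, Tsc1 and Akt1s1 among the latter. The counts therefore give no direction for mTORC1 activity. The median of these 19 was -0.03. The single higher gene, Akt1s1 (0.28), was not called when SRF KO replicate 1 or SRF KO replicate 3 was left out. Rragd, a Rag GTPase that is itself a known MiT target, went from 26.9 ± 1.13 to 15.3 ± 1.51 CPM (SD, n = 3), and fell by 0.81 on the log2 scale (SE 0.08, edgeR adjusted p 1.3e-05). Tsc1, Rragb and Lamtor2 fell by 0.34, 0.34 and 0.26 on the log2 scale. Of 34 autophagy genes 3 were higher (8.82%) and 4 lower (11.8%), under the 21.2% and 21.3% of all genes, with a median of -0.04. Of the autophagy genes 2 were lower without WT replicate 1 or either of SRF KO replicates 1 and 3, and with total counts as the scale. Ulk1, the kinase that starts autophagosome formation, fell by 0.64 on the log2 scale and Gabarapl1 by 0.22, and Gabarap and Atg14 rose by 0.21 and 0.20.

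**Figure D4:**
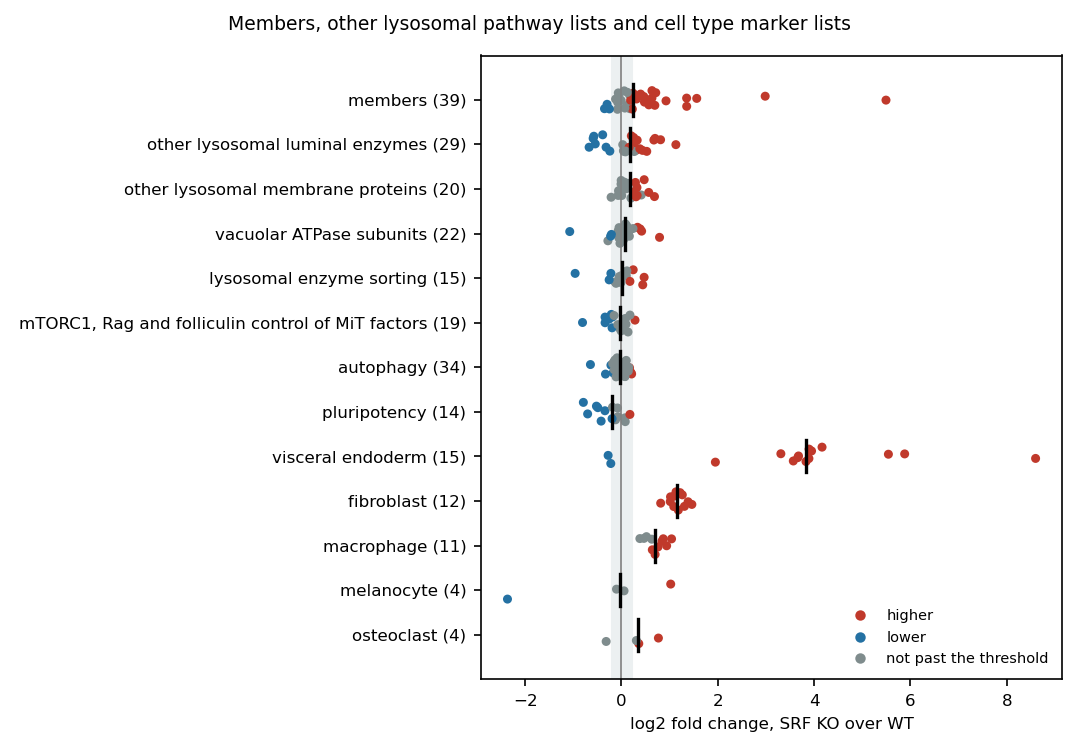
Each point is the log2 fold change of 1 gene, in red where it rose, blue where it fell and grey where it did not pass, and the black bar is the median of the list, with the number of tested genes in parentheses. The grey band spans the middle 50% of all genes tested, and the vertical position of points within a row has no meaning. The medians are 0.24 for the 39 genes, 0.19 and 0.17 for the other luminal and membrane genes, and 3.83 for visceral endoderm markers, where the rightmost point, Ttr, rests on WT libraries with no count and its position is a fitted value.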

How the data were processed

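RNA sequencing of 3 SRF KO and 3 WT libraries was used. Per the labels' protocols, RNA was taken with TRIzol, paired reads were sequenced on an Illumina HiSeq instrument, and reads were cleaned of adaptors, poor sequence and empty reads. The submitters' processing notes name mm10 and DESeq2. The aligner, the counting program, its annotation and its use of strand are not given in the sources used here. The deposited values are whole-number counts per gene and transposable element subfamily, not normalized by the authors, judged from the values. No column of another series was present.

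One edgeR 4.0.16 model (R 4.3.3) held every entry: filterByExpr (minimum count 10), TMM scaling, the quasi-likelihood test without a replicate term, and Benjamini-Hochberg adjustment. DESeq2 1.42.0 was an alternative. Intervals are 95%, and a count of 0 allows 3 counts, between 0.0828 and 0.117 CPM. Intervals and floors cover counting error only where they rest on counts. Scripts were tested on simulated data. Replicate libraries differed by more than sampling noise (chi-square per degree of freedom between 1.64 and 15.7), so each was kept as its own replicate.

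The members and lists were chosen with earlier results of these data known. All 39 members are named, with Srf, for each pathway list up to 4 called genes ranked by p, and leading markers. Igf2r, Mlana, Nanog, Zfp42, Pou5f1, Ttr, Rhox5, C1qc and Akt1s1 were named after their values were seen. One gene that the rule names is not reported here. Exon lengths, overlaps and gene positions are from GENCODE M21 (GRCm38) and promoter sequences from RefSeq (GRCm38.p6). Alternatives were scaling, filter, features, thresholds, DESeq2, left-out replicates and a replicate block.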

Additional observations from a re-analysis of the deposited data

How the results depend on the processing

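No alternative was chosen after its result was seen. DESeq2 size factors, total counts without TMM, the DESeq2 test, no filter on low counts and gene entries alone kept all 25 member calls. No scaling moved the median of all genes by 0.1 or more. The sign of Mcoln1, which never passed the threshold, turned with DESeq2 size factors (0.0037), total counts (0.031) and DESeq2 (0.0036), and without SRF KO replicate 2 (0.019) or WT replicate 3 (0.021).

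At an adjusted p under 0.01, 22 member calls were left, without Tfeb (-0.35), Ppt1 (0.22) and Npc2 (0.19). All genes lower were then 2013, and pathway genes higher 19 of the main 34. With calls limited to log2 changes of size 1 or more, by construction, members higher were 5 and lower 0, all genes 817 and 260, pathway genes 1 and 1, and marker genes lower 1. The members no longer called were Ctsk (0.92), Sgsh (0.71), Cd63 (0.69), Ctss (0.63), Man2b1 (0.63), Ctsb (0.57), Lipa (0.57), Ctsz (0.53), Lamp1 (0.48), Ctsd (0.46), Tpp1 (0.42), Gusb (0.40), Smpd1 (0.40), Ctsa (0.31), Asah1 (0.24), Ppt1 (0.22), Npc2 (0.19), Hexa (-0.25), Manba (-0.30) and Tfeb (-0.35).

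With one replicate left out at a time, members higher were between 20 and 24 and members lower between 2 and 6 (6 without WT replicate 2). Pathway genes higher were between 21 (without SRF KO replicate 1) and 37, and the cause was not tested. The lowest and highest values were -0.44 and -0.27 for Tfeb, 0.17 and 0.28 for Ppt1, 0.14 and 0.23 for Npc2, 0.12 and 0.22 for Mitf, -0.12 and -0.034 for Tfe3, -0.15 and -0.034 for Grn, 0.034 and 0.13 for Lamp2, -0.14 and -0.11 for Npc1, and -0.034 and 0.021 for Mcoln1.

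Replicate numbers were not taken as pairs in the main fit. Deviations of same-numbered libraries had correlations of 0.0469, 0.196 and 0.0932 for replicates 1 to 3. SRF KO replicates 2 and 3 correlated best with the WT library of the same number, and SRF KO replicate 1 with WT replicate 3 (0.102). Whether replicates of the same number share a preparation is not given in the sources used here. With a replicate block all 25 member calls were made, and Gaa (0.15), Psap (0.13) and Npc1 (-0.12) passed as well, 28 in all. Over 546 comparisons of a member's fold change with an alternative, 503 kept direction and call. Depth limits Tfec, with 2 to 7 counts in WT.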
